A study of Mus musculus with 8 samples.

Results

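Lipoprotein lipases, lipid transfer proteins and angiopoietin-like proteins act on triglyceride-rich and high-density lipoproteins, and 9 genes that encode them were examined in mouse liver. They are Lpl, Lipc, Lipg, Pltp, Lcat, Angptl4, Angptl6, Angptl8 and Mttp, taken by gene symbol from a table of 25010 genes, in which each of the 9 has 1 row. RNA-Seq was performed on the left lobe of the liver of 2 wild-type (WT) mice and 2 mice that lack liver X receptor (LXR) α and β (LXRDKO), with 1 library per mouse. All 4 mice had a C57BL/6 background, were aged 8 wk, ate standard chow and went 4 to 6 h without food before collection. LXRDKO mice lack both receptors in the whole body, so a difference in liver RNA cannot be assigned to hepatocytes or to other liver cells, and the mutant alleles had been backcrossed to C57BL/6. The sex of the mice is not given in the sources used here.

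Lipases of this family cut the triglycerides and phospholipids of circulating lipoproteins. LPL, the product of Lpl, works on chylomicrons and very-low-density lipoprotein (VLDL) at the capillary wall, hepatic lipase (Lipc) works on remnants and high-density lipoprotein (HDL) in the liver, and endothelial lipase (Lipg) works mainly on HDL phospholipids. PLTP moves phospholipids between lipoproteins, LCAT esterifies the cholesterol of HDL, and the large subunit of microsomal triglyceride transfer protein (Mttp) loads lipid onto apolipoprotein B as VLDL is made. ANGPTL4 and ANGPTL8 restrain LPL, and ANGPTL6 is a secreted angiopoietin-like protein of liver. LXRs are receptors for oxysterols that bind DNA with retinoid X receptors at paired half-sites, and Lpl and Pltp are known LXR target genes. Much of the LPL of the adult body is made in fat and muscle, and in liver Lpl is known from macrophages.

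Promoter sequences were compared because LXR binds DNA directly. RefSeq windows on GRCm38.p6, from 250 bases before to 50 bases after each start site, were at hand for 6 of the 9 genes (Lipc with 2 windows, and Pltp, Lcat, Angptl6, Angptl8 and Mttp with 1 each). Windows for Lpl, Lipg and Angptl4 were not used here. Both strands were searched for the half-site AGGTCA and for its variants spelled AGTTCA, then GGGTCA, and lastly GGTTCA. They were also searched for a DR4 pair, any 2 of these in the same direction with 4 bases between, and for a DR1 pair, with 1 base between. A DR4 or DR1 pair holds 2 half-sites by construction, so these searches overlap. None of the 7 windows held a DR4 pair, which 0.0822% of all 32851 windows held, and none held a DR1 pair, which 0.222% held. At least 1 half-site was found in both windows of Lipc and in those of Lcat and Angptl8, and none in those of Pltp, Angptl6 and Mttp, while 43.7% of all windows had one. The bases upstream of the start site are shown for Pltp, the gene with a window whose genotypes lay farthest apart, and for Angptl8, in which the half-site is in capitals. The Pltp sequence has no capitals since no half-site was found in it. Pltp is shown from chr2:164857712-164857958 on the minus strand and Angptl8 from chr9:21835260-21835509 on the plus strand, each 5′ to 3′.
Pltp: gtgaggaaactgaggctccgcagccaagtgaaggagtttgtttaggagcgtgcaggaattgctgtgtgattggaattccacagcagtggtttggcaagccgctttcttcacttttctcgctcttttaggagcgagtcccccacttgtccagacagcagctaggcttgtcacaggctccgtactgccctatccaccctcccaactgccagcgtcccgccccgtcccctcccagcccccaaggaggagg
Angptl8: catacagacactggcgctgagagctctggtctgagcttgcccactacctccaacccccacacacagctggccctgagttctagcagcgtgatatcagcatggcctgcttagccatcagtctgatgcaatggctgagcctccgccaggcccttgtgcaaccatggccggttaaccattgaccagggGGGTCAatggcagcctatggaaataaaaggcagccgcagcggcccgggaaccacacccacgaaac
These matches describe letters in a short window. No match says only that the letters are not in that window.

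The libraries held from 55772659 to 72842744 reads on genes. Values are normalized counts, that is, reads on a gene divided by 1 size factor per library, and no normalized count of a gene is corrected for its length. All 9 genes passed the filter of a mean of at least 10 normalized counts, and the fewest reads behind any of their values were 347, for Lpl in LXRDKO replicate 2. Counting error was thus at most 5.37% of a value. The labels were checked on the deleted genes. Nr1h3 (LXRα) was at 5785 and 5322 in WT and at 1712 and 1826 normalized counts in LXRDKO, and Nr1h2 (LXRβ) had 2987 and 3110 in WT and 925 and 1003 in LXRDKO. Alb, the albumin gene that marks hepatocytes, had between 4644569 and 5959085 normalized counts per liver, and of 6 hepatocyte markers 0 were called by limma, 0 had an unadjusted P value under 0.05 and 0 were called by DESeq2. Of the 6, 3 (Cps1, Ass1 and Pck1) were higher in both LXRDKO livers without overlap, as were 21.7% of all genes tested.

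Genotypes were compared by limma on log2(normalized count + 1), over 15578 genes, at an adjusted P value of 0.05. On this scale a fold change understates the difference of a gene with few counts. With 2 livers against 2, the smallest P value that exact permutation of the 4 livers allows for any gene is 0.333, so P values lean on the variance that limma shares between genes. Of the 9 genes, 0 were called by limma, where 0.321% of all genes tested were. At an unadjusted P value of 0.05, limma found 3 of the 9 (Lpl, Pltp and Mttp), all lower in LXRDKO, against 13.3% of all genes in either direction and 7.50% lower. DESeq2, the tool the study used, gave 2 of the 9 an adjusted P value below 0.05 when run on the recovered reads (Lpl and Mttp, both lower in LXRDKO), against 3.59% of all genes, and edgeR gave 0, against 0.311%. The LXRDKO pair was below the WT pair, with no overlap, in 4 genes (Lpl, Lipg, Pltp and Mttp), against 23.0% of all genes, and above both in 0, against 21.7%. The median log2 fold change, LXRDKO minus WT, was −0.43 over the 9 genes and −0.0046 over all genes tested. The log2 fold change was negative in 8 of the 9, against 50.9% of all genes. Of the 8, Lcat (−0.02) and Angptl4 (−0.01) turned positive with scaling to the library total. The change was at or under −2 in 2 of the 9 (Lpl and Pltp), against 0.385% of all genes. These shares are descriptions of 9 genes that were picked with results of these livers known.

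**Figure D1:**
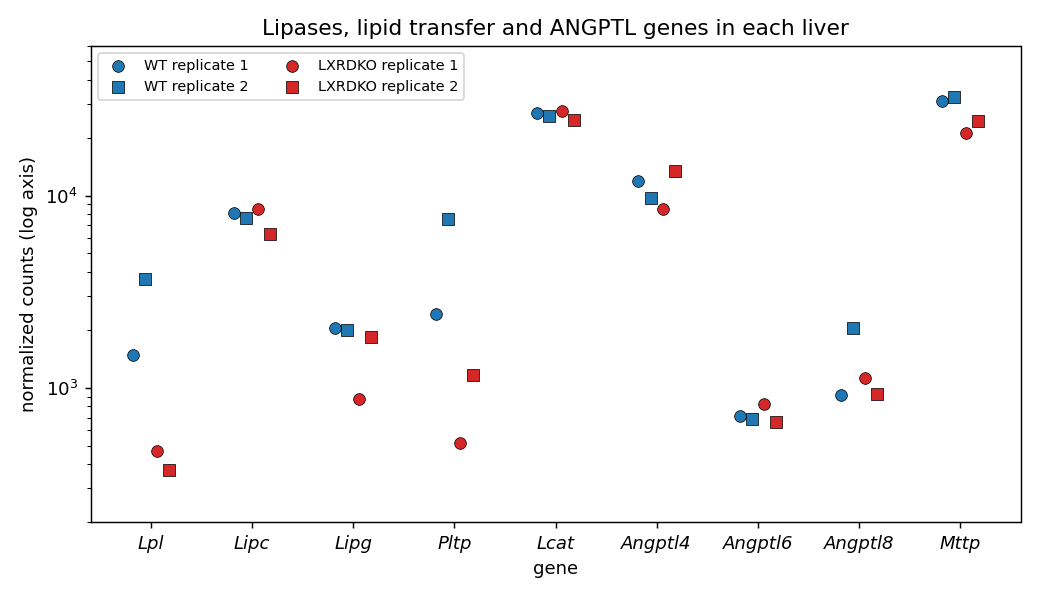
Normalized counts of the 9 genes on a log axis, with 1 point per liver (blue WT, red LXRDKO; circles replicate 1, squares replicate 2). Lpl and Pltp show the widest gaps between genotypes, with WT replicate 2 above WT replicate 1 in both, and Lcat shows 4 nearly level points.

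Lpl and Pltp had the largest differences of the 9 genes between genotypes. The gene spans bases 68880491 to 68907448 of chromosome 8 (plus strand) in GRCm38, which is mm10. Lpl (ENSMUSG00000015568) was at 1487 and 3667 in WT and at 469 and 372 normalized counts in LXRDKO. The groups did not overlap, and the lower WT liver was 3.17-fold above the higher LXRDKO liver, although the WT livers themselves were 2.47-fold apart. The LXRDKO mean was 16.3% of the WT mean, and the log2 fold change was −2.48 (95% confidence interval −3.50 to −1.46). The adjusted P value was 0.111 from limma, 0.119 from edgeR and 0.00204 from DESeq2. Lpl passed 0.05 with limma when WT replicate 1 was left out (log2 fold change −3.13, adjusted P = 0.00214) and when WT replicate 2 was left out (−1.83, adjusted P = 0.0133), but not without LXRDKO replicate 1 (−2.65, adjusted P = 0.287) or LXRDKO replicate 2 (−2.31, adjusted P = 0.353). In each of these fits 1 liver stands alone and is assumed to vary like the livers of the other genotype.

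Markers of other cells also differed between genotypes, some lower and some higher in LXRDKO. Fewer cells of a type cannot be told apart from less RNA per cell in bulk tissue. A list of 6 Kupffer cell markers (Clec4f, Vsig4, Timd4, Cd5l, Marco and Cd163) summed to 8331 and 8803 normalized counts in WT and to 860 and 492 in LXRDKO. All 6 were lower in LXRDKO with no overlap, against 23.0% of all genes tested. Limma called 4 of them (Clec4f, Cd5l, Marco and Cd163), against 0.321% of all genes. Timd4, at 266 and 288 normalized counts in WT, was at 4.75 and 0 in LXRDKO. A list of 6 general macrophage genes (Csf1r, C1qa, C1qb, C1qc, Adgre1 and Cd68) summed to 8315 and 9631 in WT and to 10906 and 6502 in LXRDKO. Of the 6, 1 (Adgre1) was lower in both LXRDKO livers, against 23.0% of all genes. A list of 6 genes of monocyte-derived or lipid-associated macrophages (Ccr2, Cx3cr1, Trem2, Gpnmb, Spp1 and Cd9) summed to 1994 and 4295 in WT and to 5350 and 5934 in LXRDKO. In this list 5 of 6 were higher in both LXRDKO livers, against 21.7% of all genes, and Gpnmb was called by limma. Spp1 had the highest level of the 6, with 1433 and 2907 in WT and 3658 and 4300 in LXRDKO. Spp1 made up most of the summed level of this list in each liver, so the sum mainly follows that gene. WT replicate 2 was above WT replicate 1 in each of the 6 genes. The part of Kupffer cells and other macrophages in the Lpl difference was not tested. Fat and muscle, the main sources of LPL elsewhere, were near absent by their markers. Adipoq and Plin1 had from 0 to 2 reads per liver, and Acta1 and Myh4, which mark striated muscle, had from 0 to 3. Cidec, a lipid droplet gene on the adipocyte list that liver also expresses, was at 277 and 805 in WT and at 168 and 816 normalized counts in LXRDKO.

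Pltp, which encodes the phospholipid transfer protein, showed a gap of similar size with a wider spread. The gene spans bases 164839518 to 164857711 of chromosome 2. Pltp (ENSMUSG00000017754) was at 2410 and 7511 in WT and at 519 and 1168 normalized counts in LXRDKO, and replicate 2 was the higher liver in each genotype, by 3.12-fold in WT and 2.25-fold in LXRDKO. The groups did not overlap, since the lower WT liver was 2.06-fold above the higher LXRDKO liver. The LXRDKO mean was 17.0% of the WT mean, with a log2 fold change of −2.45 (95% confidence interval −3.95 to −0.94). The adjusted P value was 0.205 from limma, 0.204 from edgeR and 0.106 from DESeq2. The log2 fold change ranged from −3.27 without WT replicate 1, where limma called it (adjusted P = 0.0162), to −1.63 without WT replicate 2. Pltp shares 495 of its 2562 exon bases with Ctsa on the opposite strand. The libraries were stranded, but whether strand was used in counting is not given in the sources used here. Ctsa, which encodes a lysosomal carboxypeptidase, had between 9367 and 11036 normalized counts per liver, and its part in the Pltp reads was not tested. The Kupffer cell markers given for Lpl were lower in LXRDKO, and most of the monocyte-derived or lipid-associated macrophage markers were higher. Their part in the Pltp difference was not tested either.

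Mttp showed a smaller but tighter difference. The gene (ENSMUSG00000028158) spans bases 138089854 to 138144968 of chromosome 3 and was at 31184 and 32742 in WT and at 21243 and 24551 normalized counts in LXRDKO. The groups did not overlap, and the livers of 1 genotype differed by at most 1.16-fold. The LXRDKO mean was 71.6% of the WT mean, with a log2 fold change of −0.48 (95% confidence interval −0.77 to −0.20). Limma gave an adjusted P value of 0.199, edgeR 0.223 and DESeq2 0.0231. The log2 fold change ran from −0.59 to −0.38 over fits that each omitted 1 liver. P4hb, which encodes the partner subunit of the transfer protein, was at 90820 and 66564 in WT and at 77135 and 86015 normalized counts in LXRDKO, so its groups overlapped (log2 fold change 0.07, adjusted P = 0.925, limma). Apob, the structural apolipoprotein of VLDL, had a log2 fold change of −0.05 (adjusted P = 0.955, limma). Whether Mttp differed more than these was not tested. Mttp shares 457 exon bases with Trmt10a on the opposite strand, but Trmt10a was at 235 to 298 normalized counts per liver, far below Mttp.

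**Figure D2:**
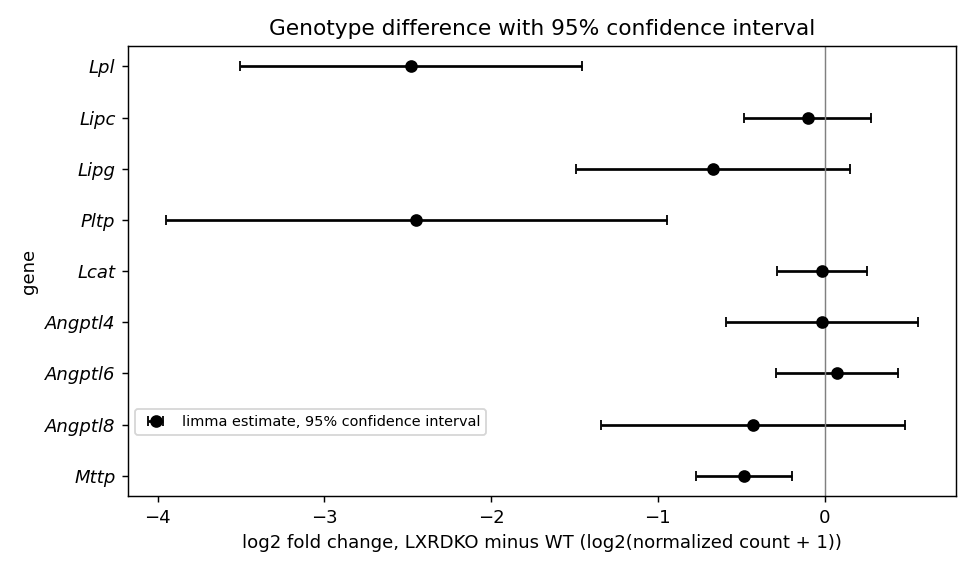
Log2 fold change, LXRDKO minus WT, of the 9 genes (points) with 95% confidence intervals from limma (bars), on the scale of log2(normalized count + 1). The intervals of Lpl, Pltp and Mttp lie below 0 before any adjustment for the number of genes tested, and the interval of Lcat is the narrowest.

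Among the lipases, hepatic lipase differed little. Lipc (ENSMUSG00000032207, chromosome 9, 70798128 to 70952226) was at 8162 and 7620 in WT and at 8515 and 6341 normalized counts in LXRDKO. WT values lay inside the LXRDKO range, and the log2 fold change was −0.10 (95% confidence interval −0.48 to 0.28, adjusted P = 0.84, limma). This interval spans fold changes from 0.715 to 1.21. Endothelial lipase was clearly lower in only 1 of the LXRDKO livers. Lipg (ENSMUSG00000053846, chromosome 18, 74939322 to 74961263) was at 2038 and 1991 in WT and at 874 and 1835 normalized counts in LXRDKO. The groups did not overlap by a narrow margin, with the lower WT liver 1.09-fold above the higher LXRDKO liver. The log2 fold change of Lipg was −0.67 (95% confidence interval −1.49 to 0.15, adjusted P = 0.463 from both limma and DESeq2). Omitting LXRDKO replicate 1 gave −0.13 and omitting LXRDKO replicate 2 gave −1.20, so LXRDKO replicate 1 decided its size.

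Levels of different genes were compared per kilobase (kb) of exon, taking the union of the exons annotated in GENCODE M21. This understates genes with long exons that liver does not use. The union was longest for Lpl, at 10.5 kb, against 4.7 kb for Lipg and 2.15 kb for Lipc. The place of Lpl and its ratios to Lipc rest on that length. Before division by length, the WT mean of Lpl was 2577 normalized counts, above Lipg at 2015. Lcat had the highest level of the 9 genes, with 19715 ± 610 normalized counts per kb (SD, n = 2) in WT. Mttp followed with 5150 ± 177, then Lipc with 3670 ± 178 and Angptl4 with 3058 ± 443 (SD, n = 2 each). The WT livers of Lipc and Angptl4 did not overlap although their means lay within 2 SD of Angptl4. Pltp had 1936 ± 1408 and Angptl8 1722 ± 926 (SD, n = 2 each), which their spread does not separate. The lowest levels in WT were those of Angptl6 (444 ± 9.4), Lipg (427 ± 7.1) and Lpl (246 ± 147; SD, n = 2 each). Angptl6 and Lipg lay close, without overlap of the WT livers, and the higher Lpl liver, at 350, came near Lipg. In LXRDKO the order was Lcat, Mttp, Lipc, Angptl4, Angptl8, Angptl6, Pltp, Lipg and Lpl, with Mttp at 3690 ± 377, Lipc at 3455 ± 715 and Angptl4 at 3091 ± 983 normalized counts per kb (SD, n = 2 each), which their spread does not separate. Pltp stood at 329 ± 179 in LXRDKO, beside Angptl6 at 470 ± 74.4 (SD, n = 2 each), and their livers overlapped. Within each liver, where the size factor cancels, Lpl stood at 3.74% and 9.87% of Lipc per kb in WT and at 1.13% and 1.20% in LXRDKO. Lipg stood at 11.4% and 11.9% of Lipc in WT and at 4.68% and 13.2% in LXRDKO.

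LCAT, the HDL enzyme, was level across the 4 livers. Lcat (ENSMUSG00000035237, chromosome 8, 105939551 to 105943382) was at 27036 and 25879 in WT and at 27596 and 24804 normalized counts in LXRDKO. The groups overlapped, and the log2 fold change was −0.02 (95% confidence interval −0.28 to 0.25, adjusted P = 0.97, limma). Differences beyond 0.821-fold or 1.19-fold lie outside this interval. Other HDL genes on a list of 7 (Apoa1, Apoa2, Apom, Apof, Abca1, Scarb1 and Pon1) overlapped between genotypes in all 7, with log2 fold changes from −0.18 to 0.28. Of all genes tested, 23.0% were below and 21.7% above in both LXRDKO livers, and the rest overlapped. Abca1, an LXR target that exports cholesterol to HDL, was at 17221 and 16547 in WT and at 12581 and 17696 normalized counts in LXRDKO (log2 fold change −0.18, adjusted P = 0.73, limma). Scarb1, the HDL receptor, had a log2 fold change of −0.18 and Apoa1, the main HDL protein, one of −0.09 (adjusted P = 0.668 and 0.935, limma).

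Angptl4, Angptl6 and Angptl8 overlapped between genotypes. Angptl4 (ENSMUSG00000002289, chromosome 17, 33773750 to 33781830) was at 11937 and 9720 in WT and at 8485 and 13406 normalized counts in LXRDKO. Both WT livers lay between the LXRDKO livers, and the log2 fold change was −0.01 (95% confidence interval −0.59 to 0.56, adjusted P = 0.987, limma). Its sign turned with the liver left out, from −0.34 without LXRDKO replicate 2 to 0.32 without LXRDKO replicate 1. Angptl6 (ENSMUSG00000038742, chromosome 9, 20873808 to 20879727) was at 713 and 692 in WT and at 827 and 660 normalized counts in LXRDKO (log2 fold change 0.07, 95% confidence interval −0.29 to 0.44, adjusted P = 0.89, limma). Angptl6 shares 265 of its 1582 exon bases with A230050P20Rik on the opposite strand. That gene was at 4888 and 4611 in WT and at 3411 and 3317 normalized counts in LXRDKO. Without the strand setting of the counting, reads on the shared bases cannot be told apart.

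Angptl8 was set apart by 1 WT liver. The gene spans bases 21835510 to 21837347 of chromosome 9, inside Dock6 on the opposite strand, with no exon bases in common. Angptl8 (ENSMUSG00000047822) was at 923 and 2056 in WT and at 1127 and 927 normalized counts in LXRDKO. WT replicate 1 was the lowest of the 4 livers and WT replicate 2 the highest, by 2.23-fold over WT replicate 1. The log2 fold change was −0.43 (95% confidence interval −1.34 to 0.48, adjusted P = 0.688, limma). It was −1.01 without WT replicate 1, where limma called it (adjusted P = 0.0466), and 0.15 without WT replicate 2. Angptl2 had a log2 fold change of 0.33 and Angptl7 one of −1.17 at 31 normalized counts or fewer, with adjusted P values of 0.399 and 0.476 (limma).

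**Figure D3:**
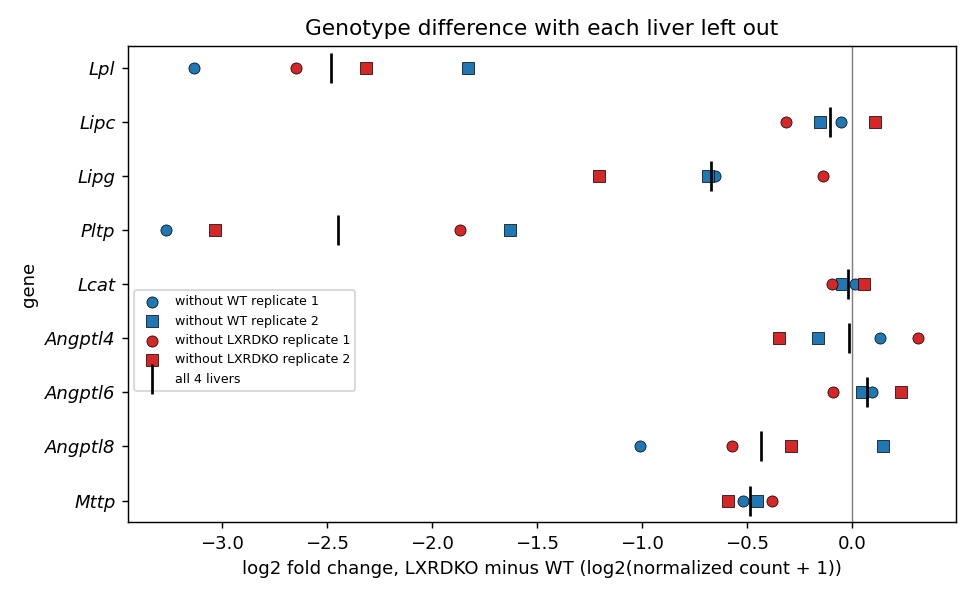
Log2 fold change, LXRDKO minus WT, of the 9 genes with all 4 livers (black bars) and with each liver left out (blue WT, red LXRDKO; circles replicate 1, squares replicate 2). Lpl, Lipg, Pltp and Mttp stay below 0 in every fit, and the other 5 genes cross 0.

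Livers of 1 genotype were far apart at some of the 9 genes. In WT, 3 of the 9 genes were at least 2-fold apart (Lpl, Pltp and Angptl8), each higher in WT replicate 2, where 6.28% of all genes tested were that far apart and 4.23% were so with WT replicate 2 higher. In LXRDKO, 2 of the 9 were at least 2-fold apart (Lipg and Pltp), each higher in LXRDKO replicate 2, against 4.39% of all genes. The other genes were closer. For Lipc, Lcat, Lipg, Angptl6 and Mttp, WT replicate 2 was between 0.934 and 1.05 times WT replicate 1.

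The protein-coding genes whose pattern was nearest to Lpl were found by the Euclidean distance of centred log2(normalized count + 1) over the 4 livers, among 13407 genes. With 4 livers this is a coarse measure. For Lpl they were Fabp5 (distance 0.565), Lrrc39 (0.57) and Amer2 (0.579). Fabp5, a fatty acid binding protein gene, was at 667 and 1978 in WT and at 156 and 199 normalized counts in LXRDKO (log2 fold change −2.70, limma adjusted P = 0.127, DESeq2 adjusted P = 0.00654). For Pltp they were H2-Q1 (0.389), Klk1b4 (0.477) and Slc35f2 (0.533), of which H2-Q1 and Klk1b4 belong to multigene families that can share reads. For Angptl8 they were Hba-a2 (0.0469), Ric3 (0.127) and Trpm4 (0.131). Several of these genes had few reads. Hba-a2 had 63 reads or fewer per liver, and Ric3 had from 15 to 44. Amer2 had from 12 to 112, Klk1b4 from 12 to 156 and Lrrc39 from 27 to 253.

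Genes that work with these proteins were taken from a list of 46, of which 45 were in the table and 41 were tested. Limma called 0 of the 41, with 9 at an unadjusted P value under 0.05, all lower in LXRDKO, against 13.3% of all genes in either direction and 7.50% lower. DESeq2 called 3, all lower (Lipa, Mgll and Lsr), against 2.03% of all genes called lower, and edgeR called 0. The median log2 fold change over the list was −0.12, beside −0.0046 over all genes, with 30 lower and 11 higher. The LXRDKO pair was below the WT pair in 12 of the 41, against 23.0% of all genes, and above both in 3, against 21.7%.

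Of the 13 genes for LPL maturation, anchoring, cofactors and inhibitors, 10 overlapped between genotypes. In both LXRDKO livers 2 were below and 1 above, against 23.0% and 21.7% of all genes. Gpihbp1, which holds LPL on capillary endothelium, was at 640 and 686 in WT and at 719 and 526 normalized counts in LXRDKO. Lmf1, the factor for lipase folding, had 3324 and 2375 in WT and 3101 and 3086 in LXRDKO. Sel1l, of the same quality control in the endoplasmic reticulum, had a log2 fold change of −0.47 with no overlap (adjusted P = 0.268 from limma and 0.0982 from DESeq2). The LPL cofactor Apoc2 had a log2 fold change of 0.23, the inhibitor Apoc3 one of −0.03 and the activator Apoa5 one of 0.27, with adjusted P values of 0.757, 0.955 and 0.504 (limma). Creb3l3, a transcription factor gene of liver that acts on Apoc2 and Apoa5, was at 29221 and 29193 in WT and at 22248 and 25753 normalized counts in LXRDKO (log2 fold change −0.29, adjusted P = 0.373, limma).

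Intracellular lipases differed more than the LPL partners did in median, without a test of that difference. Lipa, which encodes lysosomal acid lipase, was at 12283 and 14992 in WT and at 8098 and 8692 normalized counts in LXRDKO (log2 fold change −0.69, adjusted P = 0.127 from limma and 0.000588 from DESeq2). Mgll, the monoglyceride lipase gene, had 14083 and 15877 in WT and 9296 and 11097 in LXRDKO (log2 fold change −0.56, adjusted P = 0.171 from limma and 0.0157 from DESeq2). Pnpla2, which encodes adipose triglyceride lipase, was higher in both LXRDKO livers by 0.35 on the log2 scale (limma adjusted P = 0.442). The pancreatic lipase genes Pnlip and Pnliprp1 had from 0 to 2 reads per liver. Of 4 receptors for lipoproteins and remnants, all 4 had a negative log2 fold change, from −0.99 to −0.35. Lsr, a receptor for remnants, was at 12135 and 12197 in WT and at 9429 and 9144 normalized counts in LXRDKO (log2 fold change −0.39, adjusted P = 0.161 from limma and 0.0494 from DESeq2). Vldlr had 137 and 488 in WT and 140 and 119 in LXRDKO, so its WT replicate 2 stood above the other 3 livers as it did for Angptl8.

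**Figure D4:**
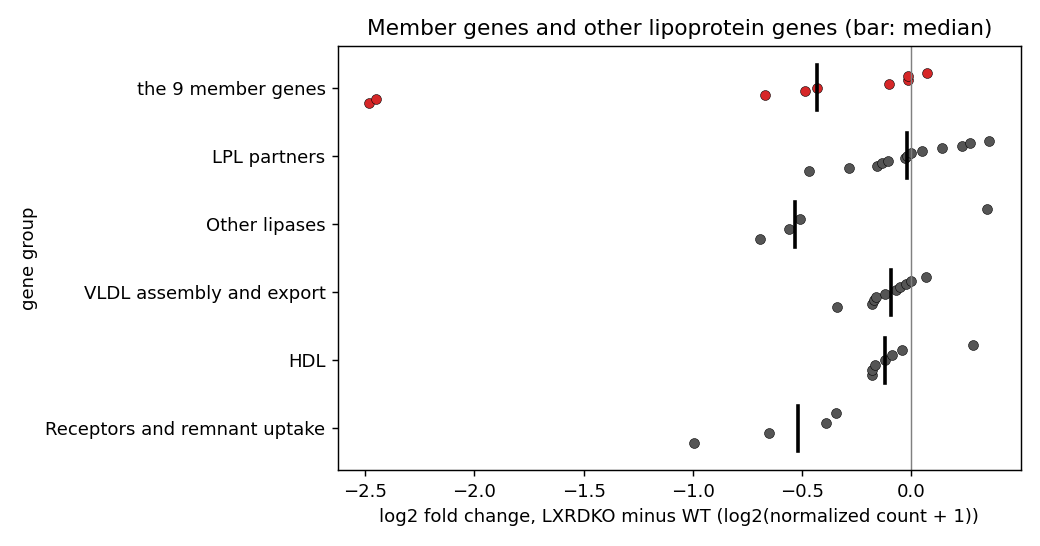
Log2 fold change, LXRDKO minus WT, of the 9 genes (red) and of listed lipoprotein genes in 5 roles (grey), with the median of each group as a bar. Lpl and Pltp lie at −2.48 and −2.45, and the other genes shown lie between −0.99 and 0.36. The listed role of other angiopoietin-like genes, with a lowest value of −1.17, is not shown.

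Transcription factors with known roles in lipid metabolism differed in size. Srebf1, which drives fatty acid synthesis and is itself an LXR target, was at 22205 and 24071 in WT and at 3118 and 5287 normalized counts in LXRDKO and was called by limma (log2 fold change −2.51, adjusted P = 0.0407). WT replicate 2 was 1.08-fold above WT replicate 1 for Srebf1, beside 2.47-fold for Lpl and 3.12-fold for Pltp. Ppara, the receptor gene for fatty acid oxidation that also acts on Angptl4, had a log2 fold change of −0.58 (adjusted P = 0.214 from limma and 0.0282 from DESeq2), while Angptl4 itself differed by −0.01. Endothelial markers, set beside endothelial lipase, summed to 9822 and 8872 normalized counts over 6 genes in WT and to 7619 and 5804 in LXRDKO. Of these 6, 3 (Pecam1, Kdr and Clec4g) were lower in both LXRDKO livers, against 23.0% of all genes tested, and Kdr was called by limma. The part of endothelial cells in the Lipg values was not tested. Stellate cell markers were higher in both LXRDKO livers in 4 of 5 cases (summed level 11116 and 11493 in WT, 15604 and 17519 in LXRDKO), and biliary markers in 4 of 4 (644 and 675 in WT, 895 and 1109 in LXRDKO). Of all genes tested, 21.7% were higher in both LXRDKO livers. Of the 3 acinar markers of pancreas, only Cela1 passed the filter, and it ranged from 353 to 1410 normalized counts. Amy2b had at most 1 read per liver, and Prss2 was absent from the genes given.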

How the data were processed

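RNA-Seq was analysed for 2 WT and 2 LXRDKO livers, and ATAC-Seq was not analysed here. Per the labels and methods, the authors captured polyadenylated RNA for stranded libraries, aligned single-end reads to mm10 with STAR 2.6.0c and normalized with DESeq2. The deposited values are a signal, the normalized count of each gene in each library. The counting tool and annotation are not given in the sources used here. All values (100%, tolerance 0.01) were whole multiples of 1 read, so reads were recovered. Positions and exon lengths came from GENCODE M21 on GRCm38 (24987 gene identifiers matched). Log2(normalized count + 1) was tested with limma 3.58.1 in R 4.3.3, using the trend option, after removal of genes averaging under 10 normalized counts, with Benjamini-Hochberg adjustment. DESeq2 1.42.0 and edgeR 4.0.16 were run on recovered reads. Tests were tested on simulated data. Livers are separate mice.

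The 9 genes, the other lists and the tests were chosen with earlier results of these data known. Genes named are the 9, fixed partners (1 is not reported here), listed genes called by limma or with the smallest DESeq2 values (up to 8), marker genes and the 3 nearest genes to Lpl, Pltp and Angptl8. Ctsa, A230050P20Rik, Dock6 and, of the list, Sel1l, Angptl2, Angptl7, Pnpla2, Pnlip, Pnliprp1 and Vldlr were named after their values were seen. Protein sequences were not used here.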

Additional observations from a re-analysis of the deposited data

How the results depend on the processing

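Limma called 50 genes over all genes tested. The count was 25 with a filter at a mean of 50 normalized counts, 1 without the trend, 567 with DESeq2 on the recovered reads and 90 with the replicate number as a block, and from 2 to 262 with each liver left out. Of the 9 genes, limma called 0. DESeq2 called 2 (Lpl and Mttp), the fit with the replicate block called 1 (Pltp, adjusted P = 0.0138), and fits without a liver called from 0 to 3. WT replicate 1 left out gave 3 (Lpl, Pltp and Angptl8), WT replicate 2 left out gave 1 (Lpl), and either LXRDKO liver left out gave 0. Of the 41 listed lipoprotein genes, limma called 0, DESeq2 3, and fits without a liver from 0 to 2 (Lipa and Vldlr without WT replicate 1). The list's median log2 fold change of −0.12 stayed negative in all 15 alternatives. It ran from −0.161 without WT replicate 2 to −0.067 with scaling to the library total. For Lpl, Lipg, Pltp and Mttp the sign was the same in all 15, and for the other 5 genes, none called over all 4 livers, it turned in from 1 to 5. The cause of these differences in calls was not tested. In a fit without a liver, 1 liver stands alone, so the spread within its genotype does not enter the calls. Whether same-numbered livers were handled as pairs is not given in the sources used here. Their deviations correlated at 0.0031 across genes, which cannot settle whether single genes such as Pltp share a replicate effect. The limits are those of 2 mice per genotype. Counting error was at most 5.37% of a value, and with 1 library per mouse, differences between mice cannot be told apart from those of dissection or library preparation.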
